A study of Homo sapiens with 12 samples.

Results

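The EGR, NR4A and IER gene families and the transcription factor SRF were followed across all 12 RNA-seq libraries of the series. The members are 10 genes chosen by symbol (EGR1, EGR2, EGR3, NR4A1, NR4A2, NR4A3, IER2, IER3, IER5 and SRF), out of 36486 genes left after the rows of the deposited count table were added by gene symbol. The series used 2 human tumor cell lines. TOV-112D, an ovarian cancer line that carries mutant p53 (R175H), was exposed for 3 h to the vehicle DMSO, to UCI-1001 or to UCI-1014, with 2 libraries per group. Saos-2, an osteosarcoma line, was studied without p53 (p53-null) and with a wild-type p53 (p53-WT) that a lentivirus carries and doxycycline switches on, with 3 libraries per group and 16 h of induction in the labels of both. The comparisons ask how compounds intended to restore function to mutant p53 change transcription, and which genes differ with induced wild-type p53. In the study the p53-null cells are the parental line, so wild-type p53 and the lentiviral engineering cannot be told apart. The labels give no dose, and a dose for the UCI-1014 libraries was not found in the sources used here, so the compounds are compared as libraries of equal exposure time only. The DMSO libraries serve as control for UCI-1001 and for UCI-1014 alike, and each line stands for 1 genetic background.

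Immediate early genes are transcribed within minutes of a stimulus, without the need for new protein synthesis. Growth factors and stress act on many of them through the ERK kinases, which activate ternary complex factors bound to SRF at the CArG box, and through kinases that phosphorylate CREB at the cyclic AMP response element. EGR proteins are zinc finger transcription factors, NR4A proteins are nuclear receptors that act without a known physiological ligand, and IER genes encode small proteins of several kinds. Some of these genes are also known to be induced by stress that p53 or the heat shock factor HSF1 responds to.

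Library totals ranged from 17762027 to 20717898 counts in TOV-112D and from 19593655 to 24629558 counts in Saos-2. In Saos-2, the replicates numbered 1 stood apart from the others of their groups: the chi-square statistic per degree of freedom between replicates was 23.0 to 38.4 for pairs with replicate 1 and 3.09 to 3.79 for the other pairs. The labels of the Saos-2 libraries were checked with CDKN1A, a p53 target that blocks the cell cycle, at 56.9 to 79.1 CPM (counts relative to the TMM-scaled library size) in p53-null and 7921 to 9039 CPM in p53-WT. Of 10 markers of epithelial cells, 3 exceeded 1 CPM in each TOV-112D group, KRT18 was at 0 throughout TOV-112D, and their summed level was 4.33 to 7.11 CPM, against 725 to 1097 CPM in Saos-2. Of 10 osteoblast markers, 3 exceeded 1 CPM in p53-null and 2 in p53-WT, SP7 was at 0 in both, and the summed level was 26.6 to 28.2 CPM in p53-null and 42.3 to 50.7 CPM in p53-WT. In each TOV-112D group 5 of the osteoblast markers exceeded 1 CPM and their summed level was higher than in Saos-2, at 59.6 to 66.1 CPM, so that neither marker list followed the labelled origin of the lines. Their part in the results was not tested. In such bulk samples, fewer cells that express a gene and less RNA per cell cannot be told apart.

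Promoter sequences are shown for the 4 members whose windows held the most matches to the binding motifs of SRF and CREB. The RefSeq table (GRCh38.p14) gave 11 windows of 300 bases, from 250 before to 50 after a transcription start, for 7 of the 10 members. EGR2, NR4A1 and SRF have several starts. The CArG box, the core motif of SRF, was found in 1.29% of the 35116 windows of all genes, and 0.0313% held 2 or more. The EGR1 and SRF windows held 2 each and 1 of the EGR2 windows held 1. The motif reads the same on both strands. In the sequences below, written 5′ to 3′ on the strand of the gene capitals mark the CArG boxes. They lie at chr5:138465329-138465478 (EGR1, plus strand), chr6:43171119-43171268 (SRF, plus strand) and chr10:62816374-62816516 (EGR2, minus strand). The EGR1 and SRF stretches end before the first annotated start, while the EGR2 stretch ends before the start of EGR2-202 and lies in an intron of EGR2-206 and EGR2-207, which start further upstream.
EGR1: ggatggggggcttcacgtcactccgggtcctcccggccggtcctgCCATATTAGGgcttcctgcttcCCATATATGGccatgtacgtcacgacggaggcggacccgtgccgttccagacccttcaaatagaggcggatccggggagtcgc
SRF: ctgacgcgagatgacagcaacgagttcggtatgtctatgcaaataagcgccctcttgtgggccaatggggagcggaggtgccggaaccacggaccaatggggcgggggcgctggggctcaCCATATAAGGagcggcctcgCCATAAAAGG
EGR2: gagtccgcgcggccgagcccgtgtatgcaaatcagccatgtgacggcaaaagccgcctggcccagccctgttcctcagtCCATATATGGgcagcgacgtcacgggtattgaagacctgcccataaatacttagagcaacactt

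The EGR1 boxes began 105 and 83 bases before the start, the SRF boxes 30 and 10 bases before it, and the EGR2 box 71 bases before a start that EGR2-201, the leading EGR2 transcript in UCI-1014 and p53-WT, also uses. The core of the cyclic AMP response element, TGACG, was searched on both strands and was found in 24.6% of all windows. The NR4A3 window held 4 copies, as 0.313% of all windows held 4 or more. The stretch shown lies at chr9:99821735-99821854 (plus strand), upstream of all annotated NR4A3 starts, and holds 3 of them in capitals, written as CGTCA where they lie on the other strand.
NR4A3: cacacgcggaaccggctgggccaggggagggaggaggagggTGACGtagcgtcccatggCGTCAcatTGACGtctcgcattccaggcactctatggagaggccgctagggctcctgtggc

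TGACG also occurred 2 times in the EGR1 window, 2 times in the EGR2 window shown, and 1 time each in the SRF and IER2 windows. The full palindrome TGACGTCA, which contains TGACG on each strand and was found in 1.85% of all windows, was in none of the windows of the members. CCGGAA, a core to which ternary complex factors and other ETS proteins bind, was found in 17.2% of all windows and in 1 window each of IER2, IER5, NR4A1 and SRF. GCGNGGGCG, the motif of EGR proteins themselves, was found in 9.43% of all windows and in 1 window each of EGR1, EGR2 and SRF. GAANNTTC, a core of the heat shock element, was found in 6.77% of all windows and in that of IER5. These matches describe the letters of the windows and are not measured binding sites.

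In TOV-112D cells, UCI-1001 raised 8 of the 10 early genes and UCI-1014 raised all 10, and neither lowered any. The EGR genes and NR4A3 rose most, by 3.54-fold (EGR3) to 25.1-fold (EGR2) with UCI-1001 and by 6.63-fold (EGR1) to 50.4-fold (EGR2) with UCI-1014. Over all 14177 genes tested, an adjusted p-value under 0.05 was reached by 9.39% as rises and 6.36% as falls with UCI-1001, and by 23.7% as rises and 23.4% as falls with UCI-1014. With a log2 fold change over 1 in size added, the threshold the study used, 4 members passed as rises with UCI-1001 and 6 with UCI-1014, where 1.18% and 4.51% of all genes rose and 0.127% and 0.973% fell. The median log2 fold change was 0.85 over the members and 0.00 over all genes with UCI-1001, and 1.74 and -0.02 with UCI-1014. All 10 members were higher without overlap of the libraries in both comparisons, as were 29.4% and 35.4% of all genes. Nothing in the labels says that replicates were separate cultures, so the p-values measure the spread between these libraries, which may be technical.

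**Figure D1:**
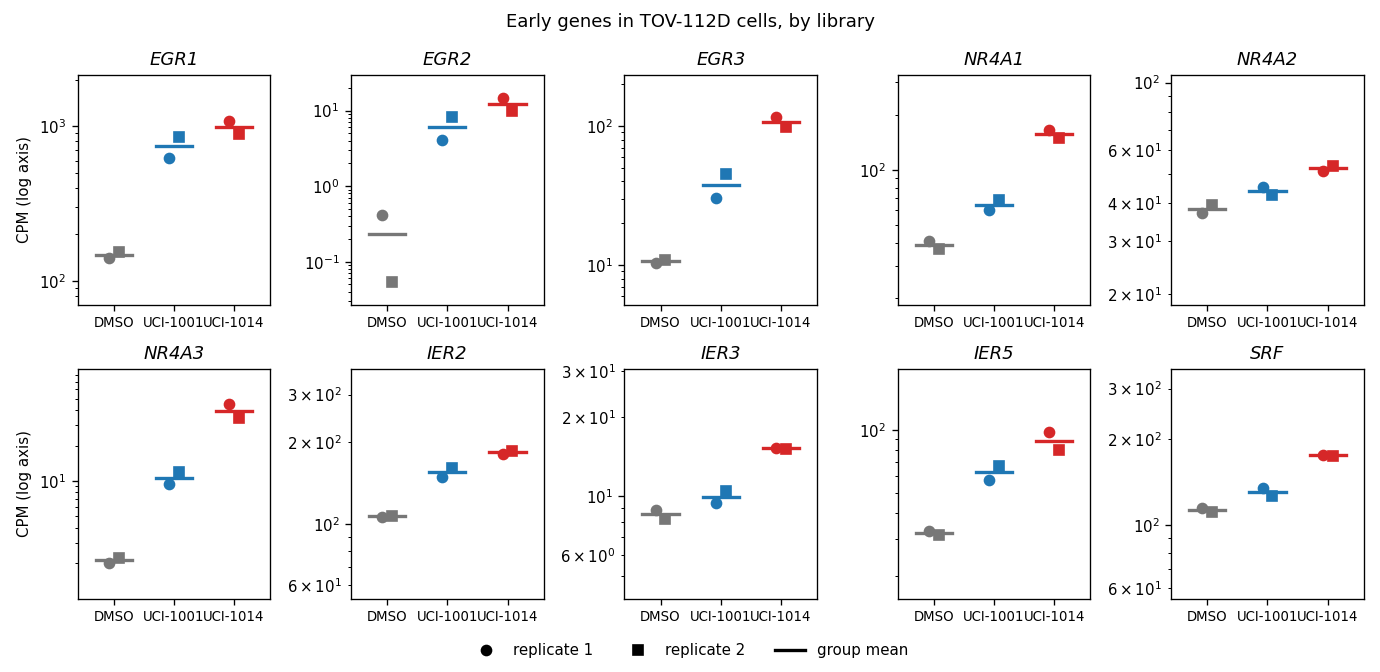
Level of each of the 10 early genes in CPM, on a log axis that differs between panels, in the 2 libraries each of TOV-112D cells with DMSO, UCI-1001 or UCI-1014 (points) with the group mean (bar). Each gene is lowest in DMSO and highest in UCI-1014, with a step that is steep for EGR3 and NR4A3 and shallow for NR4A2 and SRF.

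EGR1 encodes the zinc finger factor most often used as a reporter of ERK activity. It stood at 141 and 155 CPM in the DMSO libraries, at 625 and 855 CPM with UCI-1001, and at 1073 and 888 CPM with UCI-1014. The groups did not overlap, although the highest UCI-1001 library came close to the lowest UCI-1014 library. The log2 fold change was 2.32 ± 0.12 (SE, n = 2 per group in this and the following values in TOV-112D, adjusted p = 8.49e-09) with UCI-1001 and 2.73 ± 0.12 (adjusted p = 1.64e-10) with UCI-1014.

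EGR2, a regulator of myelination and of lymphocyte tolerance, was close to silent in DMSO, with 8 and 1 counts (0.412 and 0.0541 CPM). It reached 4.06 and 8.20 CPM with UCI-1001 and 14.9 and 9.87 CPM with UCI-1014. Both treated groups lay far above DMSO, and the level of the treated libraries was still low beside EGR1. The ratio of summed counts to the 9 counts of DMSO was 25.7 (exact 95% interval 13.3 to 56.9) with UCI-1001 and 51.3 (26.8 to 113.0) with UCI-1014, where the intervals cover counting error only. The fitted log2 fold changes were 4.65 ± 0.55 (adjusted p = 4.48e-05) and 5.66 ± 0.49 (adjusted p = 2.93e-07). They were 6.65 and 7.67 without DMSO replicate 1, which held 8 of the 9 counts, 3.87 and 4.87 without DMSO replicate 2, and 3.71 and 4.74 with an offset for transcript length, and passed the test in each case.

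EGR3, which shares its DNA motif with EGR1 and is known from T cells and muscle spindles, had 10.4 and 10.9 CPM in DMSO. It had 30.4 and 45.3 CPM with UCI-1001 and 117 and 98.3 CPM with UCI-1014. Unlike EGR1, it kept a wide gap between the compounds. The log2 fold changes were 1.83 ± 0.17 (adjusted p = 3.74e-06) and 3.33 ± 0.15 (adjusted p = 2.89e-10).

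The 3 NR4A receptors rose by unequal amounts. NR4A3 went from 2.01 and 2.22 CPM in DMSO to 9.36 and 12.02 CPM with UCI-1001 and to 44.9 and 34.1 CPM with UCI-1014. NR4A1 (Nur77), which is known both as a T cell activation marker and as a factor in apoptosis, went from 40.9 and 36.8 CPM to 60.5 and 68.6 CPM and to 165 and 149 CPM. NR4A2 (Nurr1), which dopaminergic neurons need, stayed within a narrow range, at 37.0 and 39.4 CPM in DMSO, 45.2 and 42.6 CPM with UCI-1001 and 51.1 and 53.1 CPM with UCI-1014. None of the 3 receptors had overlapping groups. With UCI-1001 the log2 fold change was 2.33 ± 0.22 for NR4A3 (adjusted p = 5.14e-06), 0.73 ± 0.08 for NR4A1 (adjusted p = 1.63e-05), and 0.20 (95% interval 0.06 to 0.34) for NR4A2, which did not pass the test (adjusted p = 0.0525). With UCI-1014 it was 4.21 ± 0.18 for NR4A3 (adjusted p = 1.48e-10), 2.01 ± 0.07 for NR4A1 (adjusted p = 1.93e-11) and 0.45 ± 0.06 for NR4A2 (adjusted p = 5.16e-05). The NR4A2 value with UCI-1001 passed the test with DESeq2's size factors (adjusted p = 0.0485) and without UCI-1014 replicate 1 (0.0458) or replicate 2 (0.0487), libraries that are not part of this comparison but share its fit.

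IER5, known as a partner of HSF1 that promotes its activity, rose most of the IER genes. It had 32.8 and 31.3 CPM in DMSO, 57.8 and 67.3 CPM with UCI-1001 and 97.7 and 79.6 CPM with UCI-1014. IER2, a nuclear protein with a role in cell motility, had 107 CPM in both DMSO libraries, 149 and 161 CPM with UCI-1001 and 182 and 186 CPM with UCI-1014. IER3, which modulates apoptosis and ERK signaling, had 8.92 and 8.18 CPM in DMSO, 9.46 and 10.5 CPM with UCI-1001 and 15.3 and 15.2 CPM with UCI-1014. The log2 fold changes with UCI-1001 were 0.96 ± 0.10 for IER5 (adjusted p = 9.47e-06) and 0.54 ± 0.05 for IER2 (adjusted p = 1.9e-06), whereas IER3 did not pass the test, at 0.22 (95% interval -0.03 to 0.47, adjusted p = 0.232). With UCI-1014 all 3 passed, at 1.46 ± 0.09 for IER5 (adjusted p = 1.34e-08), 0.78 ± 0.05 for IER2 (adjusted p = 4.41e-09) and 0.83 ± 0.11 for IER3 (adjusted p = 1.98e-05). The table lists IER3 under 6 identifiers, of which 1 held all the TOV-112D counts and 4 held counts in Saos-2 only, equal to each other in each Saos-2 library, so that IER3 levels are not compared between the cell lines.

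SRF had 115 and 111 CPM in DMSO, 134 and 126 CPM with UCI-1001, and 176 and 174.8 CPM with UCI-1014. Its log2 fold change was 0.21 ± 0.05 (adjusted p = 0.00641) with UCI-1001 and 0.63 ± 0.04 (adjusted p = 3.21e-08) with UCI-1014. The UCI-1001 value was the smallest that passed the test, and it no longer passed without DMSO replicate 2 (0.18, adjusted p = 0.118) or without UCI-1001 replicate 1 (0.16, adjusted p = 0.0656).

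Between the compounds, all 10 members were higher with UCI-1014 than with UCI-1001, without overlap of the libraries, where 31.5% of all genes were higher without overlap. All 10 pairs of values passed the test, where 17.1% of all genes passed as higher and 13.9% as lower, and 4 passed as higher with a log2 fold change over 1, where 1.54% of all genes were higher and 0.303% lower. The members' median difference was 0.56 on the log2 scale. The difference was greatest for NR4A3 (1.88 ± 0.13, adjusted p = 1.21e-07), EGR3 (1.51 ± 0.12, adjusted p = 5.69e-07) and NR4A1 (1.28 ± 0.07, adjusted p = 4.91e-09). It was 0.61 ± 0.11 for IER3 (adjusted p = 0.000512), 0.50 ± 0.09 for IER5 (adjusted p = 0.000541) and 0.43 ± 0.04 for SRF (adjusted p = 4.69e-06). EGR1, one of the genes that moved most against DMSO, differed by only 0.41 ± 0.11 (95% interval 0.18 to 0.63, adjusted p = 0.0101) between the compounds, and IER2 and NR4A2 by 0.25 ± 0.04 (adjusted p = 0.0007) and 0.25 ± 0.06 (adjusted p = 0.00861). EGR2 differed by 1.01 ± 0.27 (adjusted p = 0.0109).

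The differences of EGR1 and EGR2 between the compounds rested on single libraries. Without UCI-1001 replicate 1 they were 0.21 (adjusted p = 0.0714) and 0.59 (adjusted p = 0.0877), without UCI-1014 replicate 1 they were 0.28 (adjusted p = 0.107) and 0.70 (adjusted p = 0.139), and without UCI-1001 replicate 2 they grew to 0.66 and 1.61. The NR4A2 difference no longer passed without UCI-1001 replicate 2 (0.22, adjusted p = 0.0542). In UCI-1001, 8 of the 10 members were higher in replicate 2 than in replicate 1, all but NR4A2 and SRF, and in UCI-1014, 8 of 10 were higher in replicate 1, all but NR4A2 and IER2. In DMSO the members were split 5 and 5. Scaling by total counts alone moved the median of all genes to -0.15 with UCI-1014 against DMSO and to -0.13 with UCI-1014 against UCI-1001, and it made 30.1% and 25.5% of the calls over all genes rises, where the TMM-scaled calls were split 23.7% to 23.4% and 17.1% to 13.9% of genes. With that scaling all 10 members still rose against DMSO, and against UCI-1001 all but NR4A2 (0.13, adjusted p = 0.113) were higher, with IER2 at 0.13.

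In Saos-2 cells the same families did not move as 1 group. EGR2, the 3 NR4A genes, SRF, IER5 and IER3 were higher in p53-WT, EGR1 and IER2 were lower, and EGR3 had too few counts to be tested. Of the 9 genes tested, 7 rose and 2 fell, where 33.5% of the 14275 genes tested rose and 33.0% fell. With a log2 fold change over 1 in size, 6 rose and none fell, where 17.9% of all genes rose and 12.6% fell. The median was 1.26 over the 9 members and -0.01 over all genes. In 8 of the 10 members the groups did not overlap, while 35.0% of all genes were higher and 35.7% were lower without overlap.

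**Figure D2:**
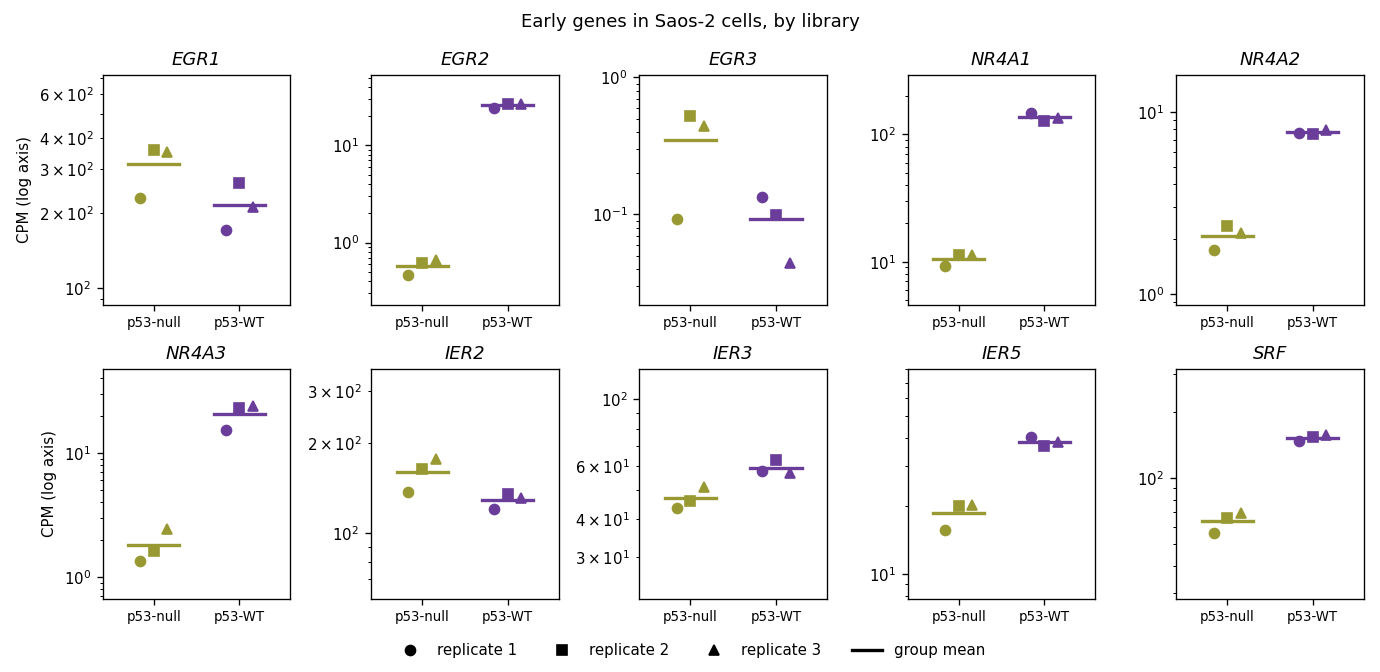
Level of each of the 10 early genes in CPM, on a log axis that differs between panels, in Saos-2 cells, with 3 libraries (points) of p53-null and 3 of p53-WT, and the group mean (bar). EGR2, NR4A1 and NR4A3 are far apart between the groups, whereas EGR1 and EGR3 overlap and EGR1 and IER2 are lower in p53-WT.

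EGR2 had 0.461, 0.616 and 0.658 CPM in p53-null and 24.3, 26.7 and 26.5 CPM in p53-WT. NR4A1 had 9.21, 11.2 and 11.2 CPM and 146, 127 and 134 CPM. NR4A3 had 1.34, 1.61 and 2.46 CPM and 15.4, 22.9 and 23.9 CPM. In all 3 genes every p53-WT library lay far above every p53-null library. The log2 fold changes were 5.47 ± 0.17 for EGR2 (SE, n = 3 per group here and below, adjusted p = 1.31e-09), 3.69 ± 0.13 for NR4A1 (adjusted p = 2.27e-09) and 3.51 ± 0.24 for NR4A3 (adjusted p = 2.55e-07). NR4A2, which was low in this line, had 1.75, 2.37 and 2.15 CPM in p53-null and 7.62, 7.57 and 7.97 CPM in p53-WT (1.88 ± 0.17, adjusted p = 1.96e-06).

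SRF had 56.6, 65.7 and 69.6 CPM in p53-null and 148, 155 and 158 CPM in p53-WT, with a log2 fold change of 1.26 ± 0.11 (adjusted p = 1.79e-06). IER5, also known as a p53 target, had 15.6, 19.9 and 20.1 CPM and 40.3, 36.7 and 38.2 CPM (1.05 ± 0.12, adjusted p = 2.13e-05). IER3 had 43.7, 45.9 and 51.2 CPM and 57.9, 63.1 and 56.9 CPM, a small difference (0.34 ± 0.11, adjusted p = 0.0163). For SRF and IER5 the groups lay wide apart, and for IER3 the nearest libraries were close. The IER3 call was lost without p53-null replicate 2 (adjusted p = 0.0618), without p53-WT replicate 2 (adjusted p = 0.0668) and when scaled by total counts, which moved the median of all genes to -0.16 (IER3 0.19, adjusted p = 0.171).

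EGR1 had 230, 360 and 352 CPM in p53-null and 171, 264 and 211 CPM in p53-WT. The groups overlapped, since p53-null replicate 1 lay below p53-WT replicate 2. Its log2 fold change was -0.54 ± 0.19 (adjusted p = 0.0258), and it no longer passed without p53-null replicate 2 (-0.42, adjusted p = 0.0988), p53-null replicate 3 (-0.45, adjusted p = 0.102), p53-WT replicate 1 (-0.40, adjusted p = 0.0834) or p53-WT replicate 3 (-0.53, adjusted p = 0.0527). IER2 had 138, 164 and 178 CPM in p53-null and 121, 135 and 131 CPM in p53-WT, with nearest libraries close to each other. Its log2 fold change was -0.31 ± 0.12 (adjusted p = 0.0352), and it no longer passed without p53-null replicate 2 (adjusted p = 0.12), p53-null replicate 3 (0.18), p53-WT replicate 1 (0.0652), p53-WT replicate 2 (0.062) or p53-WT replicate 3 (0.0818). It was -0.50 with an offset for transcript length. Without both replicates numbered 1, 7 members rose and 2 fell. EGR3 had 2, 11 and 10 counts in p53-null and 3, 2 and 1 counts in p53-WT.

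**Figure D3:**
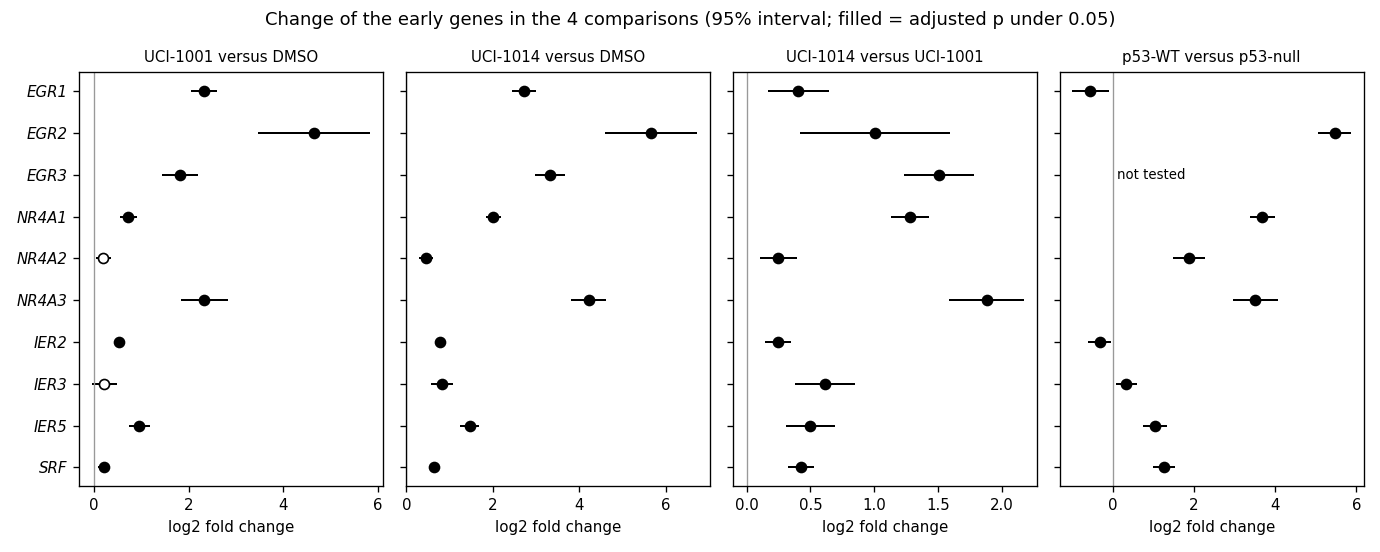
Log2 fold change of each early gene in the 4 comparisons (panels, each with its own horizontal axis), with the 95% interval as a line; filled points have an adjusted p-value under 0.05. In TOV-112D all points lie right of 0 and the open points are NR4A2 and IER3 with UCI-1001; in p53-WT EGR1 and IER2 lie left of 0 and EGR3 was not tested.

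Set side by side, the cell lines ordered the members differently. EGR1 had a log2 fold change of 2.73 with UCI-1014 and -0.54 with p53-WT, and IER2 one of 0.78 and -0.31. NR4A2 had 0.45 with UCI-1014 and 1.88 with p53-WT, and SRF 0.63 and 1.26. EGR2 and NR4A3 were high in both, at 5.66 and 4.21 with UCI-1014 and 5.47 and 3.51 with p53-WT. The cell line, p53 status, treatment and time all differ between these comparisons and cannot be told apart, and the differences were not tested.

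Levels were compared between genes in TPM (a transcript abundance corrected for transcript length), for 9 of the 10 members. The IER3 identifiers that hold counts have no transcripts in the annotation used. In DMSO, IER2 was the highest, at 92.3 ± 1.8 TPM (SD, n = 2), followed by EGR1 at 77.7 ± 3.9, SRF at 43.4 ± 1.9, NR4A1 at 38.4 ± 0.42, NR4A2 at 21.0 ± 0.38, IER5 at 12.4 ± 0.62, EGR3 at 4.84 ± 0.046, NR4A3 at 0.809 ± 0.066 and EGR2 at 0.281 ± 0.26 TPM. The libraries of neighbors in this order did not overlap. EGR1 took the top place with both compounds, at 389 ± 83 TPM with UCI-1001 and 504 ± 73 TPM with UCI-1014, ahead of IER2 at 135 ± 6.2 and 159 ± 2.0 TPM. EGR3 moved from the seventh place in DMSO and UCI-1001 (16.4 ± 6.3 TPM) to the fifth in UCI-1014 (49.9 ± 5.2 TPM), above IER5 and NR4A2. With UCI-1001, IER5 and NR4A2 did not differ beyond their spread (24.2 ± 2.4 and 23.7 ± 1.9 TPM), nor did EGR2 and NR4A3 (4.39 ± 2.9 and 3.71 ± 0.57 TPM).

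In p53-null Saos-2 cells, EGR1 (148 ± 44 TPM, SD, n = 3) and IER2 (113 ± 22 TPM) were at the top. Their ranges overlapped, although EGR1 was above IER2 in each library. SRF followed at 22.0 ± 3.8 TPM, above NR4A1 at 8.40 ± 1.6 and IER5 at 6.42 ± 1.3. The ranges of NR4A1 and IER5 overlapped, although NR4A1 was above IER5 in each library. NR4A2 was at 1.24 ± 0.38 TPM. NR4A3, EGR2 and EGR3 were all below 1 TPM. In p53-WT, EGR1 (87.9 ± 27 TPM), NR4A1 (74.3 ± 3.7 TPM) and IER2 (68.5 ± 12 TPM) overlapped at the top, so that NR4A1 stood beside genes it had been far below. EGR1 was above IER2 in each p53-WT library, while the place of NR4A1 varied between libraries. EGR2 (12.2 ± 2.3 TPM) and IER5 (11.3 ± 0.90 TPM) overlapped as well, and EGR3 remained lowest at 0.0504 ± 0.0029 TPM. This EGR3 level rests on 3, 2 and 1 counts, so its small SD is no measure of precision.

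**Figure D4:**
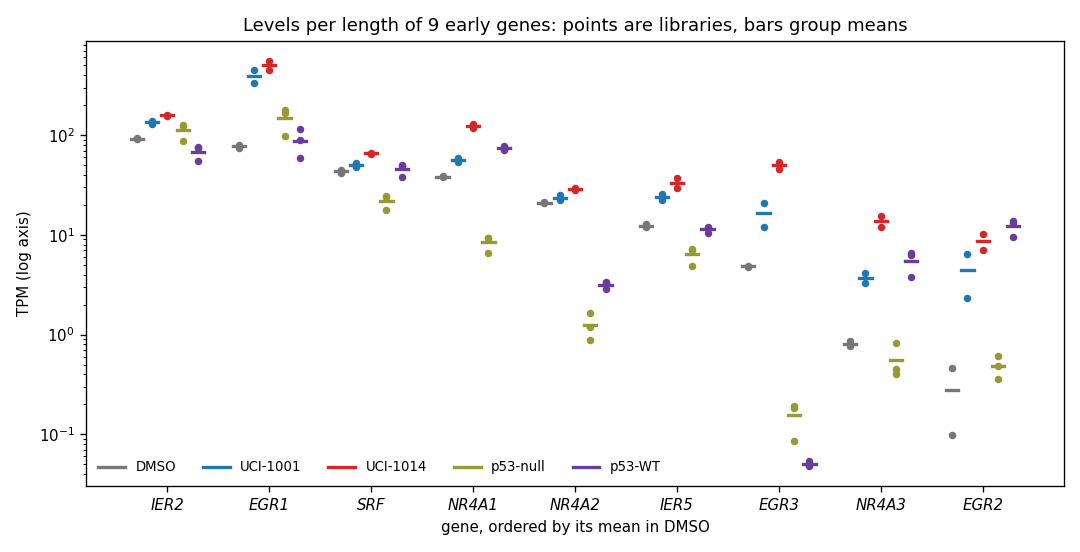
Level per length of 9 early genes in TPM on a log axis, ordered by their mean in DMSO, with a point per library and a bar for each group mean. EGR1 is the top gene with both compounds, while NR4A1, NR4A2 and NR4A3 are lower in p53-null than in p53-WT and EGR3 is below 1 TPM in both Saos-2 groups.

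The make-up of transcripts, as estimated by the authors' quantification, differed between groups for NR4A1 and IER2. These estimates divide reads among transcripts that share exons, so they are less certain than the gene totals, and they are given without a test. EGR1, IER5 and SRF have a single transcript in the annotation. NR4A1 lies on chromosome 12 and has several starts. Its leading transcript, NR4A1-204, starts at position 52051442 (GRCh38), downstream of the starts at 52022832 and 52037715 for which promoter windows were at hand.

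Transcripts that start within 10 bases of NR4A1-204 summed to 16.3 and 11.4 TPM in the DMSO libraries, 28.6 and 34.6 TPM with UCI-1001 and 87.0 and 74.1 TPM with UCI-1014. Those that start further upstream summed to 22.0 and 24.8 TPM in DMSO, 23.5 and 22.4 TPM with UCI-1001 and 41.2 and 41.8 TPM with UCI-1014. The upstream sum was thus about equal between DMSO and UCI-1001, while the NR4A1-204 group was higher in each treated library than in either DMSO library. In Saos-2 the NR4A1-204 group summed to 3.72 ± 0.86 TPM in p53-null and 66.4 ± 3.9 TPM in p53-WT, whereas the upstream group had 4.36 ± 1.4 and 4.88 ± 0.38 TPM. As a share of NR4A1, the NR4A1-204 group made up 29.9% to 42.0% in DMSO, 63.1% to 66.9% in UCI-1014, 34.2% to 50.2% in p53-null and 88.7% to 90.3% in p53-WT.

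IER2, on chromosome 19, consists of 2 exons in its main transcript, IER2-201. A second annotated transcript, IER2-203, is 1 exon that starts at position 13151975 and reaches 969 bases into the intron of IER2-201. IER2-203 held 5.09% to 7.63% of IER2 TPM in the TOV-112D libraries and 7.34% to 8.93% in p53-null, and 41.4% to 43.8% in p53-WT. In Saos-2, IER2-203 was at 9.23 ± 1.5 TPM in p53-null and 29.1 ± 5.4 TPM in p53-WT, and IER2-201 at 103 ± 20 and 38.1 ± 6.0 TPM. The summed IER2 count that fell slightly therefore combines transcripts whose estimates lay in opposite directions, without overlap of the groups in either. NR4A3 transcript NR4A3-204, from the start at 99821855 on chromosome 9, held 0% to 5.28% of NR4A3 in DMSO, where the gene had only 39 and 41 counts, 32.1% to 51.7% with UCI-1001 and 38.7% to 40.7% with UCI-1014. In Saos-2 its share was 0% to 64.1% in p53-null, with 29 to 56 counts of NR4A3, and 0% to 15.9% in p53-WT, so that its replicates varied widely there. NR4A3-201 starts at 99826727, downstream of the NR4A3 promoter window searched above. It held 49.0% to 67.8% of NR4A3 in p53-WT and 36% to 50.2% in p53-null. In DMSO it held 21.05% to 43.4%, with UCI-1001 4.0% to 14.3% and with UCI-1014 0.97% to 11.7%.

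**Figure D5:**
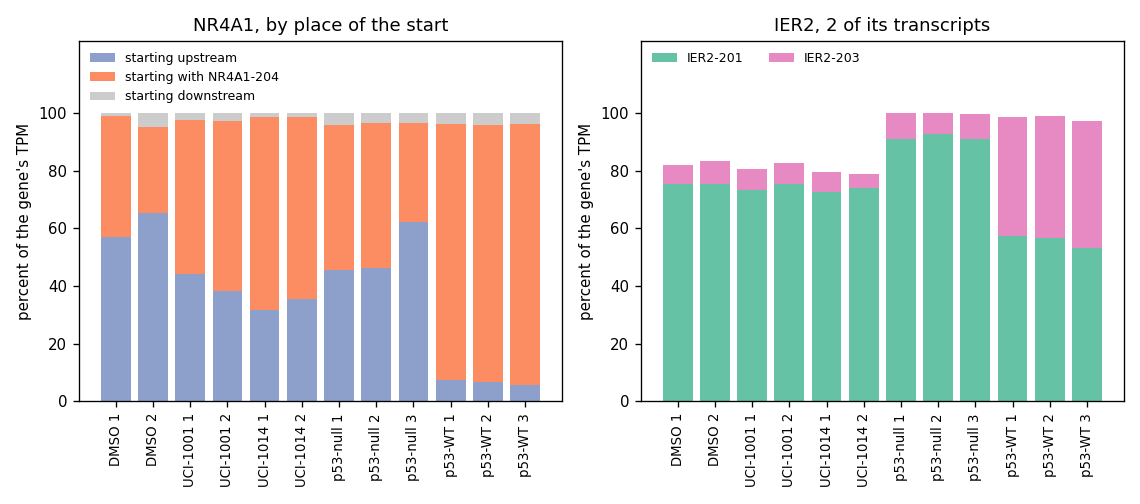
Share of the gene's TPM in each of the 12 libraries held by NR4A1 transcripts grouped by the place of their start (left) and by 2 transcripts of IER2 (right; the rest is IER2-202). The NR4A1-204 group is largest in p53-WT, at 88.7% to 90.3%, and IER2-203 exceeds 40% in the p53-WT libraries only.

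The genes around this group were described by lists of the known pathway. For the counts that follow, 9.39% of all genes tested rose and 6.36% fell with UCI-1001, 23.7% rose and 23.4% fell with UCI-1014, 17.1% were higher and 13.9% lower with UCI-1014 than with UCI-1001, and 33.5% rose and 33.0% fell in p53-WT. Of 30 other immediate early genes, 21 rose and none fell with UCI-1001, 27 rose and 1 fell with UCI-1014, and between the compounds 17 were higher and 1 lower with UCI-1014. The list's median log2 fold change was 0.59, 1.29 and 0.56 in turn. KLF4, a zinc finger factor, rose most with both compounds, from 1 count in each DMSO library (2 in all) to 69 counts with UCI-1001, a ratio of 32.6 (exact 95% interval 8.69 to 275), and to 136 counts with UCI-1014, a ratio of 71.0 (19.3 to 592). MYC was the gene that fell with UCI-1014, from 346 ± 3.1 to 269 ± 18 CPM (adjusted p = 1.09e-05). MAFF, a small MAF factor, had the greatest difference between the compounds, at 137 ± 0.15 CPM with UCI-1014 and 32.3 ± 4.9 CPM with UCI-1001 (adjusted p = 1.57e-10). In p53-WT 13 of 29 genes were higher and 12 lower (median -0.25), and 10 were higher and 14 lower when scaled by total counts. BTG2, an antiproliferative p53 target, rose from 1.66 ± 0.11 to 225 ± 9.0 CPM (adjusted p = 3.25e-10) and KLF2 fell from 16.8 ± 3.5 to 2.73 ± 0.37 CPM (adjusted p = 4.13e-07).

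A further list held relatives and partners of the EGR, NR4A and IER5 proteins, of which 6 were tested. Of these, 1 rose with UCI-1001, 3 rose and 1 fell with UCI-1014, and 3 were higher with UCI-1014 than with UCI-1001. EGR4, the fourth EGR gene, was the one that rose with UCI-1001, from 2.28 ± 0.68 CPM in DMSO to 22.1 ± 4.1 CPM (adjusted p = 1.91e-07), and it reached 64.2 ± 12 CPM with UCI-1014 (adjusted p = 7.19e-11; against UCI-1001, adjusted p = 7.2e-07). RXRA, a dimer partner of NR4A1 and NR4A2, fell with UCI-1014 from 63.2 ± 1.6 to 55.4 ± 1.9 CPM (adjusted p = 0.0138). In p53-WT 3 rose and 1 fell. RXRA rose from 9.76 ± 1.8 to 18.8 ± 1.2 CPM (adjusted p = 0.00018), and NAB2, a corepressor of EGR proteins, fell from 30.6 ± 4.0 to 21.3 ± 0.47 CPM (adjusted p = 0.0026).

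Of 5 partners of SRF tested, none rose and 2 fell with UCI-1001, 3 rose and 2 fell with UCI-1014, and 2 were higher and 1 lower with UCI-1014 than with UCI-1001. ELK1, a ternary complex factor, rose with UCI-1014 from 119 ± 6.1 to 172 ± 3.8 CPM (adjusted p = 2.23e-07) and was also higher than with UCI-1001 (130 ± 0.50 CPM, adjusted p = 9.24e-06). MRTFB, an actin-regulated coactivator, fell from 58.0 ± 0.90 CPM in DMSO to 42.6 ± 1.3 CPM with UCI-1001 (adjusted p = 0.000143) and to 29.6 ± 0.24 CPM with UCI-1014 (adjusted p = 1.38e-08; against UCI-1001, adjusted p = 2.63e-05). In p53-WT 2 rose and 3 fell. MRTFA rose from 17.1 ± 2.2 to 28.6 ± 0.85 CPM (adjusted p = 0.00027) and ELK1 fell from 45.5 ± 2.5 to 26.1 ± 0.93 CPM (adjusted p = 3.82e-05).

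The list of actin and adhesion genes known as targets of SRF with MRTF factors held 16 genes. CCN1 and CCN2 were not found under these symbols among the counts, so their response is not known here. Of the 14 tested, 2 rose and none fell with UCI-1001, and 4 rose and 1 fell with UCI-1014 both against DMSO and against UCI-1001. The counts of rises against DMSO are near the shares of all genes. Scaled by total counts, 3 rose and 6 fell with UCI-1014 against DMSO, and 3 were higher and 3 lower against UCI-1001. FHL2 rose with UCI-1001 from 14.6 ± 2.4 to 22.2 ± 0.67 CPM (adjusted p = 0.00112). ANKRD1 had 0 counts in DMSO and 1.76 ± 0.97 CPM with UCI-1014, at least 11.1-fold higher than the limit of 3 counts per library (against 0.224 ± 0.033 CPM with UCI-1001, adjusted p = 0.00159). FLNA, the actin crosslinker filamin A, fell with UCI-1014 from 1251 ± 28 to 978 ± 16 CPM (adjusted p = 1.63e-06) and was lower than with UCI-1001 (1163 ± 42 CPM, adjusted p = 0.000115). In p53-WT, 7 of 13 rose and 4 fell. ACTA2, smooth muscle actin, rose from 5.64 ± 0.13 to 237 ± 13 CPM (adjusted p = 3.25e-10) and TPM4, a tropomyosin, fell from 486 ± 16 to 201 ± 14 CPM (adjusted p = 9e-07).

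The ERK and CREB route upstream of early genes contained 20 tested genes, of which 4 rose and 1 fell with UCI-1001, 12 rose and 3 fell with UCI-1014, 11 were higher and 1 lower with UCI-1014 than with UCI-1001, and 6 rose and 5 fell in p53-WT, the last close to the shares of all genes. Scaled by total counts, 10 rose and 5 fell with UCI-1014, 6 were higher and 4 lower between the compounds, and 3 rose and 6 fell in p53-WT. CREM, a CREB family factor with an inducible repressor form, rose most with both compounds, from 11.9 ± 0.34 CPM to 16.8 ± 0.36 CPM with UCI-1001 (adjusted p = 0.00259) and 25.6 ± 2.1 CPM with UCI-1014 (adjusted p = 2.05e-07; against UCI-1001, adjusted p = 0.000108). RPS6KA1, the kinase RSK1, fell from 39.5 ± 2.1 CPM to 33.0 ± 0.20 CPM with UCI-1001 (adjusted p = 0.0247) and to 31.0 ± 2.0 CPM with UCI-1014 (adjusted p = 0.00108), but rose in p53-WT from 45.6 ± 0.31 to 168 ± 17 CPM (adjusted p = 7.26e-08). MAP2K2 (MEK2) was lower with UCI-1014 than with UCI-1001, at 119 ± 6.9 and 129.99 ± 0.88 CPM (adjusted p = 0.0495, and 0.0663 with DESeq2's size factors). SPRY4, a feedback inhibitor of ERK signaling, fell in p53-WT from 66.4 ± 8.3 to 26.7 ± 2.3 CPM (adjusted p = 3.62e-06).

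Heat shock genes driven by HSF1, the factor that IER5 binds, rose in TOV-112D without exception: 13 of 13 with UCI-1001 (median 1.29), 13 of 13 with UCI-1014 (median 2.49), and 13 of 13 were higher with UCI-1014 than with UCI-1001 (median 1.24). The near-identical HSP70 genes HSPA1A and HSPA1B led, and the division of reads between them is uncertain. HSPA1B rose from 187 ± 4.7 to 5992 ± 777 CPM with UCI-1001 (adjusted p = 5.99e-15), and HSPA1A from 217 ± 14 CPM in DMSO to 24416 ± 991 CPM with UCI-1014 (adjusted p = 8.75e-18), above its 6796 ± 502 CPM with UCI-1001 (adjusted p = 1.65e-11). In p53-WT 4 of 13 rose and 8 fell (median -0.47), with HSPB1 up from 159 ± 9.9 to 698 ± 131 CPM (adjusted p = 1.9e-07) and FKBP4 down from 294 ± 11 to 140 ± 2.3 CPM (adjusted p = 2.01e-06).

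The genes whose pattern was most like that of EGR1 were sought by Pearson's r of log2(CPM + 1) over the libraries, leaving out genes below a mean of 5 CPM. Over the 6 TOV-112D libraries these were JUN (0.998), HSPA1L, ZNF252P, HELB and HSPA6 (0.996 each), and of the other members EGR2 (0.983), IER2 (0.981) and IER5 (0.975) came closest. Over all 12 libraries they were JUN (0.984), FOSB (0.959), ACTRT3 (0.952), HSPH1 (0.949) and FOS (0.945), where IER2 had 0.869 and EGR2 0.29. The libraries form groups by treatment and cell line, so these values describe likeness and carry no test.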

How the data were processed

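RNA was sequenced from the 12 libraries described above. The authors quantified reads against GRCh38 with kallisto 0.48.0, added the estimated counts of the transcripts of each gene and deposited the sums as whole numbers; per the submitters' processing notes they used DESeq2 1.38.3. The deposited counts are not normalized. The authors also deposited the estimated count, effective length and TPM of each transcript. No other per-sample column was left unused.

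Counts (40295 rows) were added by gene symbol; 8072 rows without a usable symbol were kept by identifier, and 1834 symbols had more than 1 row. Each cell line was fitted separately with edgeR 4.0.16 (R 4.3.3; TMM, filterByExpr, quasi-likelihood test, Benjamini-Hochberg adjustment over all genes tested), and an adjusted p-value under 0.05 was the threshold. The test was also run on simulated counts with the fitted spread and fewer changed genes than were called here. That run cannot show how far the p-values hold for these libraries. Replicates varied less in TOV-112D than in Saos-2 (edgeR's biological coefficient of variation, 3.59% and 12.3%). Intervals are 95%. A count of 0 was set against 3 counts, which covers counting error only. Transcripts were placed with GENCODE release 44. The members and lists were chosen with earlier results of these data known. Named genes are the members, the called gene with the largest rise and the largest fall of each list and comparison, the 5 genes most like EGR1, and CDKN1A as a check of the Saos-2 labels; a further gene of that check is not reported here. DESeq2 1.42.0 was used for alternatives. Python 3.11.15 with pandas 2.3.3 and matplotlib 3.10.9 did the rest.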

Additional observations from a re-analysis of the deposited data

How the results depend on the processing

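No member changed direction under any alternative. The 10 values of UCI-1014 against DMSO kept their call in all alternatives in which they could be fitted; IER3 has no length offset. The count of members raised was 4, 6 and 4 for UCI-1001, UCI-1014 and UCI-1014 against UCI-1001 when the log2 fold change also had to exceed 1, and p53-WT then lowered 0. Leaving out 1 Saos-2 library gave 0 to 3 lowered members. The third was EGR3, called lower without p53-null replicate 1 (-2.32, adjusted p = 0.00809). EGR3 was also called lower with no filter (0.0481) and with DESeq2 on all 12 libraries (0.011). It was fitted but not called with DESeq2 per line (-1.915, adjusted p = 0.146) or without p53-WT replicate 2 (-1.915, adjusted p = 0.077). By CPM in place of TPM, EGR1 was in place 1 in DMSO; without p53-WT replicate 2 it was in place 2 in p53-WT, and in places 1 to 2 over the libraries left out. The cause was not tested.

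SRF with UCI-1001 was not called with DESeq2 on all libraries (adjusted p = 0.631) or a length offset (0.0746). Between the compounds, EGR1 was not called with either DESeq2 fit (0.192 and 0.342) or the offset (0.0792), EGR2 not with DESeq2 per line (0.388) or the offset (0.141), NR4A2 not with either DESeq2 fit (0.0567 and 0.31), and IER2 not with DESeq2 on all libraries (0.292).

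Same-numbered libraries did not deviate together throughout (r of 0.0253, -0.0136 and -0.216 in TOV-112D, 0.221, 0.325 and 0.0197 in Saos-2), so the numbers were not taken as pairs; p53-null replicate 2 correlated best with p53-WT replicate 3 (0.393). With a replicate block, 8, 10 and 10 members rose in TOV-112D and 7 rose and 2 fell in Saos-2, among 1774, 6307, 3882 and 9814 genes called. With the UCI-1014 numbers crossed, an alternative chosen after seeing the data as was leaving out both Saos-2 replicates 1, 2830, 7083 and 4979 genes were called.

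Depth limits EGR2 in DMSO and EGR3 in Saos-2, and 2 libraries per group limit what can be said of EGR1 and EGR2 between the compounds.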
